A study of Mus musculus with 2 samples.

Results

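The Rab genes encode small GTPases that direct membrane traffic between the compartments of the cell. They were taken as all genes whose symbol is Rab followed by a number, with at most 1 letter and 1 further digit, and which have a protein_coding transcript in the annotation. This gave 59 of 55536 annotated genes, all of which were found by gene identifier in the gene tables. The samples were 2 libraries of total RNA from tissue labelled as a layer of hippocampus, from female B6CASTF1/J mice aged 18 to 20 months. B6CASTF1/J animals inherit 1 chromosome set from C57BL/6J and the other from CAST/EiJ. The RNA input was 300 ng a library, taken after reduction of ribosomal RNA and addition of ERCC spike-ins, which are synthetic RNAs of known sequence. No treatment or altered genotype is labelled, and both libraries belong to 1 group, so no contrast between groups could be made and no p-value is given. The libraries carry separate biosample labels but the same donor label, so the SD below measures the spread between these libraries and may be partly technical.

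A Rab protein cycles between a GDP-bound form, held soluble in the cytosol by GDP dissociation inhibitor, and a GTP-bound form that recruits effectors to a membrane. Guanine nucleotide exchange factors load GTP, and GTPase-activating proteins of the TBC family stimulate its hydrolysis. Geranylgeranyl groups added to cysteines at the carboxyl end anchor the protein, and each Rab is known for a characteristic set of membranes. In hippocampal neurons, Rab3 proteins sit on synaptic vesicles and Rab11 proteins serve recycling endosomes that deliver receptors to dendritic spines.

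The family shared a compact coding sequence. In the reference transcripts, the coding length of the 59 genes ran from 194 to 973 codons with a median of 215, and 52 genes lay between 190 and 240 codons. All 59 had a cysteine codon among the last 4: 15 ended in consecutive cysteine codons, 20 had them last and 2 before the last, 21 had one 3 before the last and 3 had another arrangement. Coding identity between paralogs ranged, for example, from 78.5% for Rab6a and Rab6b to 58.6% for Rab29 and Rab32, and the longest identical run of bases in any paralog pair was 38, between Rab1a and Rab1b.

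The Rab3 genes are shown first, because the ratio among these closely related synaptic proteins is the widest of any paralog group with all members detected. Each stretch of 75 bases lies within 1 exon and starts with the last 6 codons of the switch II motif, the conserved element that changes shape on GTP binding. Positions are on mm10: Rab3a at chr8:70756447-70756521 (plus strand), Rab3b at chr4:108923906-108923980 (plus strand), Rab3c at chr13:110181023-110181097 (minus strand) and Rab3d at chr9:21914907-21914981 (minus strand). Capitals mark bases that differ from Rab3a.
Rab3a: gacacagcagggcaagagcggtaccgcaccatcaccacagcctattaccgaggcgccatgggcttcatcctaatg
Rab3b: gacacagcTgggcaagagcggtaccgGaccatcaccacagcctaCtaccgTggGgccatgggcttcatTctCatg
Rab3c: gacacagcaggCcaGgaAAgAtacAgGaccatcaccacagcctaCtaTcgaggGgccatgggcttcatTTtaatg
Rab3d: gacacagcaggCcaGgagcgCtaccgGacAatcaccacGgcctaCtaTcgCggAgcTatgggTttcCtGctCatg
Against Rab3a, Rab3b differed at 7 of these 75 bases, Rab3c at 12 and Rab3d at 15.

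Rab6a carries a pair of alternative copies of exon 4, of which a transcript contains 1. They are shown because their use is a choice between protein forms of the Golgi Rab6. The copy in transcript Rab6a-201 lies at chr7:100629838-100629943 and the copy in Rab6a-202 and Rab6a-203 at chr7:100629666-100629771, both on the plus strand of mm10. Capitals mark the bases at which the copies differ.
Rab6a-201 exon 4: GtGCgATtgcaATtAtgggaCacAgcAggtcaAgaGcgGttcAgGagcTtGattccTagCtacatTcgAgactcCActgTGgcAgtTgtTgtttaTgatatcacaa
Rab6a-202 exon 4: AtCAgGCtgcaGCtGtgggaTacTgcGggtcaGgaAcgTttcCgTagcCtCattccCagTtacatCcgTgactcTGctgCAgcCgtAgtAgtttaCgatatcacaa
The copies differed at 30 of 106 bases, and 3 of the 208 codons of the full coding sequences encoded a different residue.

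Levels are given first as TPM, an abundance per effective length, scaled to a total of 1000000 in each library, that allows genes to be compared within a library, from the authors' gene tables in the RSEM layout. Every ± below is the SD of the 2 libraries (n = 2). Detection required a TPM of 1 or more in each library. By this measure 50 of the 59 Rab genes were detected, or 84.7%, beside 58.0% of all 21901 protein-coding genes. The median TPM of the detected Rab genes was 23.6, beside 14.5 for the detected protein-coding genes. Their summed TPM was 2396 in replicate 1 and 2283 in replicate 2, which was 0.538% and 0.533% of all protein-coding TPM. Of the 59 genes, 6 had a mean TPM of at least 100, 33 lay between 10 and 100, 11 between 1 and 10, and 9 below 1. The 5 genes of highest mean TPM, which were Rab3a, Rab6b, Rab6a, Rab11b and Rab7, held 38.7% of the summed TPM in replicate 1 and 38.8% in replicate 2.

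**Figure D1:**
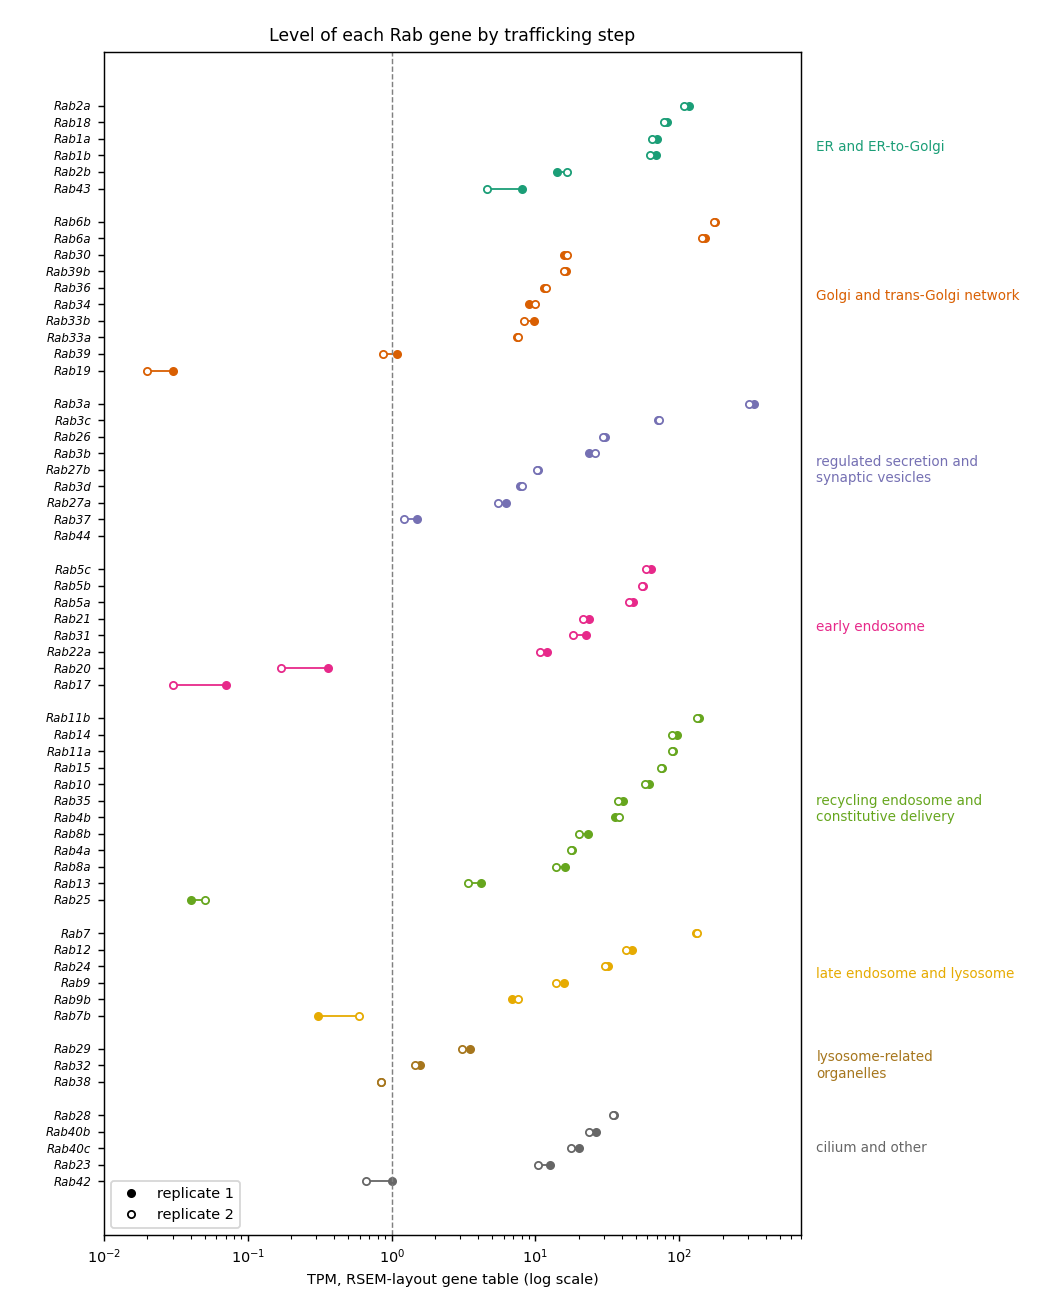
TPM (log axis) of each Rab gene in replicate 1 (filled points) and replicate 2 (open points), grouped by trafficking step, with a dashed line at a TPM of 1. Rab44 had 0 counts and has no point; in 7 of 8 steps at least 1 gene lies at or above 10 TPM, and the exception is the lysosome-related organelles.

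The libraries held 35358099 and 36307276 counts assigned to genes, of which the Rab genes took 148737 and 151941. Marker genes of hippocampal cell types were present: 6 of 6 excitatory neuron markers, 4 of 4 CA1 pyramidal cell markers and 4 of 4 dentate granule cell markers were detected. The summed TPM in replicates 1 and 2 was 441 and 417 for interneuron markers, 512 and 493 for astrocyte markers, 102 and 102 for microglia markers, and 62.1 and 61.4 for endothelial markers. Of the other lists, 4 differed more between the libraries. The 6 oligodendrocyte markers, all higher in replicate 1, summed to 1168 and 843 TPM in replicates 1 and 2. The 6 meningeal fibroblast markers summed to 51.2 and 82.4 TPM, the 4 choroid plexus markers to 158 and 54.3 TPM, and the 5 erythroid markers to 345 and 521 TPM. Of the 4 choroid plexus markers 2 were detected, and Ttr alone gave 150 and 49.1 TPM of their sum. The other detected marker, Kl, had 4.64 and 3.83 TPM. In whole tissue, fewer cells of a type and less RNA per cell cannot be told apart.

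For the endoplasmic reticulum and its export route, all 6 genes were detected and together held 14.8 ± 0.22% of the summed Rab TPM. Rab2a, which acts between the endoplasmic reticulum and the Golgi, had 116 TPM in replicate 1 and 109 in replicate 2, a mean of 112 ± 5.52. Rab18, which acts at the endoplasmic reticulum and lipid droplets, had 82.1 and 78.0 TPM. Rab1a, which tethers vesicles leaving the endoplasmic reticulum, had 69.5 and 64.2 TPM. Its paralog Rab1b had 68.6 and 62.8 TPM, so the values of Rab1a and Rab1b overlapped across libraries. Rab2b had 14.2 and 16.7 TPM. The lowest gene of this step was Rab43, at 8.01 TPM in replicate 1 and 4.60 in replicate 2. Its expected counts were nearly equal, at 508 and 520. In replicate 1, 43.1% of its TPM was given to Rab43-207, a processed transcript of 323 bases, and in replicate 2 none was. The kallisto-layout TPM of Rab43 was 7.79 and 8.21.

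At the Golgi and trans-Golgi network, 8 of 10 genes were detected, and the step held 16.8 ± 0.28% of the summed Rab TPM. Rab6 proteins drive retrograde traffic through the Golgi, and Rab6b is known as the brain-enriched form. Rab6b had 177 TPM in replicate 1 and 174 in replicate 2, and Rab6a had 151 and 144 TPM. These values did not overlap in the RSEM layout, with Rab6b the higher gene in both libraries. Rab30, a Golgi Rab, had 15.9 and 16.6 TPM. Rab39b, a Rab of neurons in which mutations are known to cause intellectual disability, had 16.4 and 15.8 TPM, a range that overlapped that of Rab30. Its paralog Rab39 had 1.09 and 0.87 TPM and so fell short of the detection rule in replicate 2. Rab36, Rab34, Rab33b and Rab33a lay between 7.40 and 11.9 TPM in both libraries. The lowest was Rab19, with 1 count in each library.

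Regulated secretion and synaptic vesicles had 8 of 9 genes detected and 20.1 ± 0.14% of the summed Rab TPM. Rab3a, the principal Rab of synaptic vesicles, was the highest of all 59 genes, at 332 TPM in replicate 1 and 304 in replicate 2, a mean of 318 ± 20.4. It alone gave 68.7% and 66.5% of its step. Rab3c had 71.4 and 72.6 TPM. Rab26, which is known to link synaptic vesicles to autophagy, had 30.5 and 29.6 TPM. Rab3b followed at 23.8 and 25.9 TPM, below Rab26 in both libraries. For protein_coding transcripts alone this order turned in both layouts. Rab26 then had 17.8 and 18.0 TPM and Rab3b 23.3 and 25.9 in the RSEM layout. In the kallisto layout Rab26 had 34.8 and 34.2 TPM and Rab3b 36.8 and 40.0. Rab27b and Rab27a, which act in the release of dense-core and lysosome-related granules, had 10.4 and 10.3 TPM and 6.20 and 5.46 TPM. Rab3d had 7.81 and 8.11 TPM, and Rab37, a Rab of secretory granules, had 1.5 and 1.21 TPM. Rab44 had 0 counts in both libraries, and 3 counts, the limit that a count of 0 allows, would correspond to 0.0590 TPM in replicate 1 and 0.0552 in replicate 2. That limit covers counting error only. The authors' own TPM interval for Rab44 ended higher, at 0.864 TPM in replicate 1 and 0.808 in replicate 2.

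Of the 8 early endosome genes, 6 were detected, and the step held 9.27 ± 0.15% of the summed Rab TPM. Rab5 proteins control fusion of endocytic vesicles with the early endosome, and all 3 were detected. Rab5c had 63.1 and 58.4 TPM, Rab5b 55.8 and 55.5 TPM, and Rab5a 47.4 and 45.1 TPM. The order Rab5c, Rab5b, Rab5a was the same in both libraries and the ranges did not overlap in the RSEM layout. In the kallisto layout Rab5c stood further above the others, at 2.02-fold and 2.00-fold over Rab5b and 2.30-fold and 2.35-fold over Rab5a. Rab21, Rab31 and Rab22a lay between 10.7 and 23.45 TPM. Rab20 and Rab17 were the genes below detection, with 12 and 6 counts for Rab20 and 1 count in each library for Rab17, the lowest of the step.

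The recycling endosome and constitutive delivery to the plasma membrane formed the largest step in summed TPM, at 25.0 ± 0.12%. It also had the most genes, of which 11 of 12 were detected. Its median TPM per gene was 38.1, below the 66.3 of the endoplasmic reticulum step. For protein_coding transcripts alone it led more narrowly. Its share was then 22.3% by RSEM-layout TPM and 21.2% by kallisto-layout TPM, beside 20.6% and 19.2% for the secretory step. Rab11 proteins are the classical Rabs of the recycling endosome. Rab11b had 138 TPM in replicate 1 and 132 in replicate 2, and Rab11a had 89.8 and 88.7. Rab14, which acts between the Golgi and endosomes, had 95.8 and 89.7 TPM and overlapped Rab11a. Rab15, which slows endocytic recycling, had 75.4 and 74.2 TPM, and Rab10, which serves exocytic and dendritic delivery, had 61.4 and 57.7 TPM. Rab35, Rab4b, Rab8b, Rab4a and Rab8a lay between 13.9 and 40.6 TPM, and Rab13 had 4.21 and 3.38 TPM. The lowest was Rab25, an epithelial member of the Rab11 group, with 1 count in each library.

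In the late endosome and lysosome step, 5 of 6 genes were detected, and they held nearly all of its 9.84 ± 0.24% of the summed Rab TPM. Rab7, which governs maturation and lysosome fusion of late endosomes, had 130 TPM in replicate 1 and 134 in replicate 2, or 56.1% and 58.5% of the step. Rab12, a Rab of degradative sorting, had 46.7 and 42.7 TPM. Rab24, linked to autophagy, had 31.9 and 30.3 TPM. Rab9 had 15.7 and 13.8 TPM and Rab9b 6.84 and 7.57 TPM. Rab7b was the lowest at 0.31 and 0.59 TPM, from 12 and 28 counts.

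The Rabs of lysosome-related organelles gave 0.24 ± 0.01% of the summed TPM. Rab29, a known partner of the kinase LRRK2, had 3.51 and 3.10 TPM. Rab32 and Rab38, which serve melanosome biogenesis, had 1.57 and 1.46 TPM and 0.85 and 0.84 TPM, so Rab38 was not detected under the rule. Among the remaining genes, grouped as cilium and other with 3.87 ± 0.13% of the sum, Rab28, which acts at cilia, had 34.9 and 34.4 TPM. Rab40b and Rab40c, which carry a SOCS box that recruits ubiquitin ligases, had 26.5 and 23.5 TPM and 20.0 and 17.6 TPM. Rab23, a regulator of Hedgehog signalling, had 12.6 and 10.3 TPM. Rab42 was the lowest there, at 1.01 and 0.66 TPM.

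**Figure D2:**
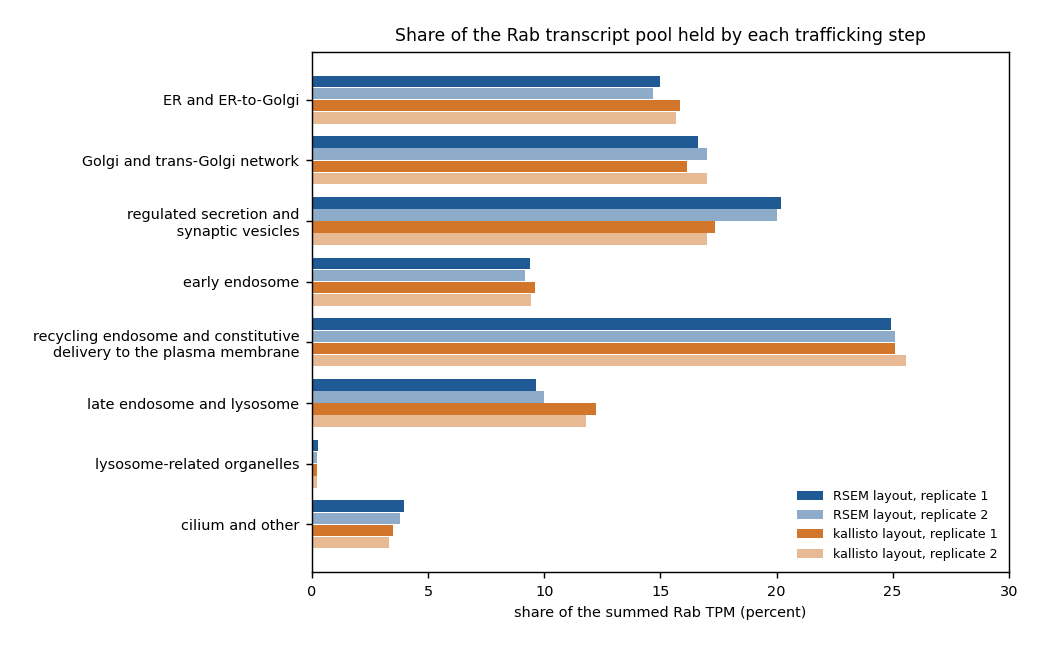
Share of the summed Rab TPM (percent) held by each trafficking step, for each library in the RSEM layout (blue) and the kallisto layout (orange). The recycling step leads in both layouts, at 25.0% and 25.3% on average, and the secretory step moves from 20.1% in the RSEM layout to 17.2% in the kallisto layout.

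Across the 50 detected genes ordered by mean TPM, the library ranges of 24 of 49 neighbouring pairs were apart and those of 25 overlapped. Rab3a, Rab6b and Rab6a were each apart from the next gene, Rab11b and Rab7 overlapped, and Rab2a was apart from both of its neighbours.

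Within the 16 paralog groups, ratios of TPM were formed inside each library, which cancels the scale of the library. The same member was highest in both libraries in 16 of 16 groups. Among the 17 detected members that were not the highest of their group, 7 lay within 1.5-fold of the leader and 2 lay more than 10-fold below it. Measured against the same genes, the number within 1.5-fold in either direction was 6 in the kallisto layout, and for protein_coding transcripts alone 7 by RSEM-layout and 5 by kallisto-layout TPM, not all of them the same pairs. The wide ratios were in the Rab3 group. Rab3a exceeded Rab3c by 4.65-fold in replicate 1 and 4.18-fold in replicate 2, and Rab3b by 14.0-fold and 11.7-fold. It exceeded Rab3d by 42.6-fold and 37.4-fold, a mean of 40.0 ± 3.62. Rab3d had 422 and 464 expected counts. By reads alone Rab3c stood above Rab3a, at 13550 and 14313 counts against 10804 and 10558, and the order given above is that per effective length. By expected counts the leader by TPM was highest in both libraries in 11 of the 16 groups, and the exceptions were Rab3, Rab5, Rab9, Rab22 and Rab40.

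Other groups ranged from near parity to several fold. Rab1a to Rab1b was 1.02 ± 0.01, and Rab5c to Rab5b was 1.09 ± 0.06. Rab6b to Rab6a was 1.19 ± 0.03 and Rab33b to Rab33a 1.21 ± 0.15. The ratio was 1.31 ± 0.03 for Rab5c to Rab5a, 1.33 in both libraries for Rab40b to Rab40c, 1.44 ± 0.01 for Rab8b to Rab8a, which act in exocytic delivery (for protein_coding transcripts alone, 3.51 by RSEM-layout and 2.87 by kallisto-layout TPM), and 1.51 ± 0.03 for Rab11b to Rab11a. Rab31 to Rab22a and Rab27b to Rab27a were both at 1.78, with SDs of 0.12 and 0.15. Ratios near 2 were found for Rab9 to Rab9b (2.06 ± 0.34), which act from late endosomes to the Golgi, Rab4b to Rab4a (2.08 ± 0.14), which act in fast recycling, and Rab29 to Rab32 (2.18 ± 0.08). Rab2a exceeded Rab2b by 7.37 ± 1.21 fold. For members that were not detected, Rab29 to Rab38 was 3.91 ± 0.31, Rab39b to Rab39 was 16.6 ± 2.16, and Rab7 to Rab7b was 419 and 226 in replicates 1 and 2 (279 and 109 in the kallisto layout). For Rab25, with 1 count in each library, no ratio to Rab11b is given.

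**Figure D3:**
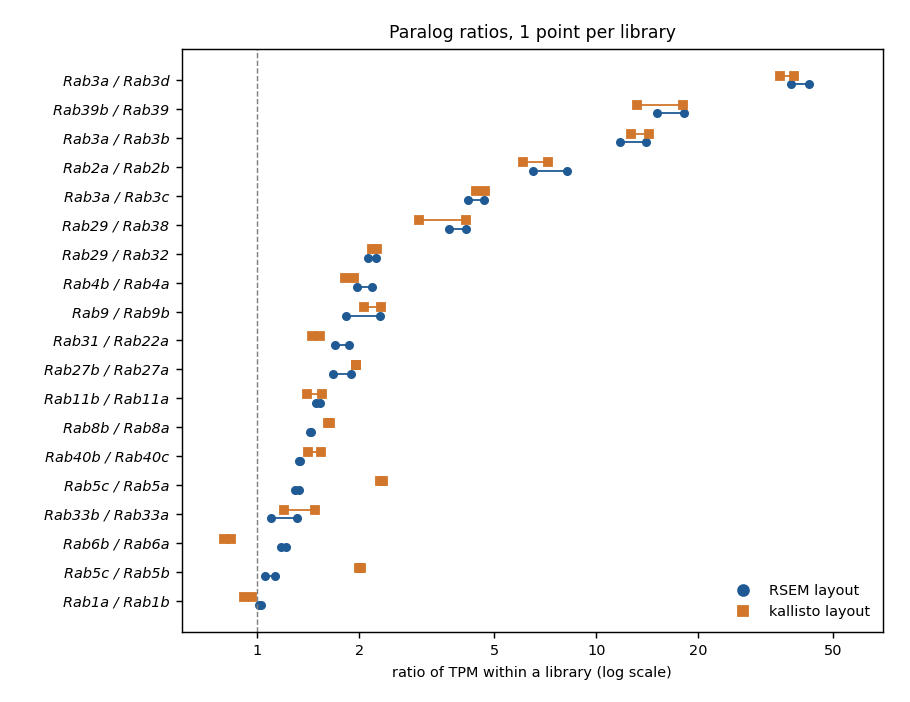
Ratio of TPM (log axis) of the leading paralog to each other member of its group, 1 point per library, in the RSEM layout (circles) and the kallisto layout (squares), with a dashed line at parity. The Rab3a to Rab3d ratio is the widest shown at 40.0 on average, and Rab1a to Rab1b and Rab6b to Rab6a cross parity between layouts; Rab7b and Rab25 are left out for their few counts.

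The order within groups depended in part on the quantification. In the deposited kallisto-layout tables, with TPM summed over the transcripts of a gene, the same member led in both libraries in 16 groups, and in 14 of them it was the RSEM-layout leader. The exceptions were Rab1, where Rab1a to Rab1b was 0.92 and 0.96, and Rab6, where Rab6b to Rab6a was 0.84 and 0.80. For Rab6a, 33.0 ± 5.24% of the kallisto-layout TPM went to Rab6a-204, a retained-intron transcript of 567 bases that took 1.16 ± 0.17% in the RSEM layout. With protein_coding transcripts alone, a setting chosen after seeing the data, Rab6b led Rab6a in both layouts, by 1.21 and 1.22 fold. On the same basis Rab11b to Rab11a was 0.89 and 0.88 in the RSEM layout but 1.44 and 1.20 in the kallisto layout, and Rab33b to Rab33a was 1.01 and 0.85. Rab3a to Rab3d was 57.4 and 56.8 for protein_coding transcripts of the RSEM layout, since Rab3d-205, a retained-intron transcript of 429 bases, held 30.5 ± 5.56% of the Rab3d TPM there.

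Overall levels also differed by layout. The median ratio of kallisto-layout to RSEM-layout TPM was 1.70 over the 50 detected Rab genes and 1.67 over all detected protein-coding genes. A ratio of at least 2 was found for 10 Rab genes, or 20.0%, beside 17.2% of detected protein-coding genes. Counts differed far less, with a median ratio of 1.07 and a range from 0.886 to 1.32 over the detected Rab genes. Among these, the ratio of TPM was highest for Rab5c at 2.82, Rab7 at 2.77 and Rab18 at 2.67. Rab7b, which was not detected, stood at 5.12 on few counts. The ratio was lowest for Rab43 at 1.27 and Rab8a at 1.29 among detected genes, and Rab25, with 1 count a library in the RSEM layout, stood at 1.07.

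Short transcripts together took a larger share in the kallisto layout, and a link to the ratios of single genes was not tested. Transcripts of at most 750 bases held 6.63% and 6.56% of the detected Rab genes' TPM in the RSEM layout of replicates 1 and 2, and 20.2% and 21.3% in the kallisto layout. They held 1.28% and 1.24% of the counts in the RSEM layout and 2.53% and 2.69% in the kallisto layout. For Rab5c, the 441-base Rab5c-203 took 48.7 ± 0.97% of the kallisto-layout TPM and 0.66 ± 0.49% of the RSEM-layout TPM. For Rab7, the 550-base Rab7-207 took 43.5 ± 0.69% and 5.56 ± 0.36%. The 462-base Rab11a-206 went the other way, at 0 in the kallisto layout and 46.7 ± 0.77% in the RSEM layout. Rab7 rose from rank 5 to rank 2 of all Rab genes and Rab18 from rank 9 to rank 6 in the kallisto layout, while Rab3a was first in both.

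**Figure D4:**
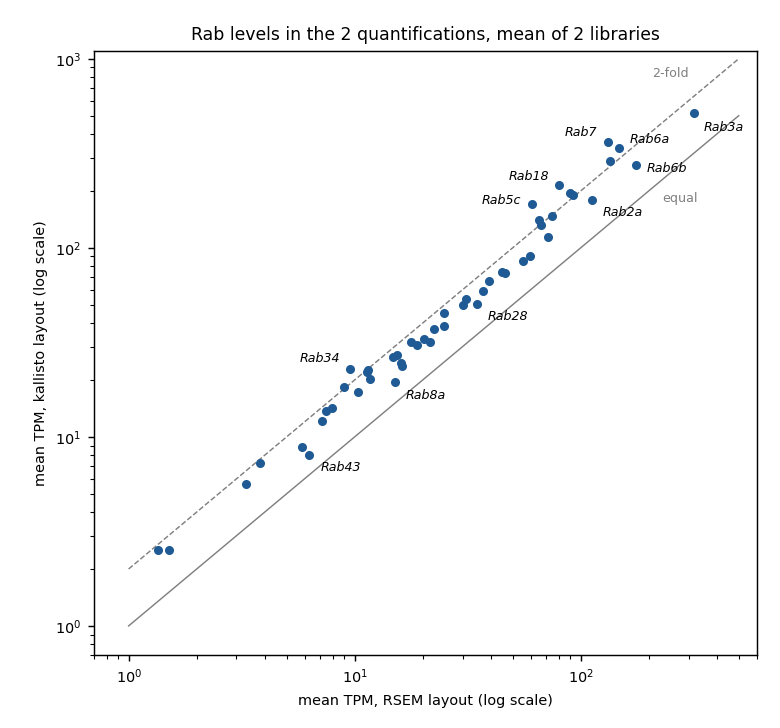
Mean TPM of the 50 detected Rab genes in the RSEM layout against the kallisto layout (both axes log, n = 2 libraries), with a solid line for equal values and a dashed line for a 2-fold higher kallisto-layout value. All points lie above the solid line, and Rab5c, Rab7 and Rab18 lie above the dashed line at 2.82, 2.77 and 2.67.

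The tables also give each transcript's percentage of its gene's TPM. The 50 detected Rab genes had 229 annotated transcripts, and 6 genes had a single one. The transcript with the largest share was the same in both libraries for 47 genes in the RSEM layout and for 47 in the kallisto layout. For 37 genes all 4 tables named the same leader. For the 6 genes with a single transcript this agreement was fixed in advance. The same shares over all detected genes are not given here, so these counts do not set the Rab genes apart. The leader took at least 80% in 26 genes and under 50% in 8. It was a protein_coding transcript in 48 genes. The others were Rab11b-204, annotated as a target of nonsense-mediated decay, at 42.7 ± 1.32%, and Rab8a-202, a retained-intron transcript of 542 bases, at 59.1 ± 1.59%. Rab8a-201, the 4550-base coding transcript, held 726.67 and 712.33 expected counts against 109 and 97.7 for Rab8a-202.

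Rab6a used the exon 4 copy of Rab6a-201 in most of its TPM. Rab6a-201 took 91.0% in replicate 1 and 90.1% in replicate 2. Rab6a-203, with the other copy, took 7.73% and 8.85%, and Rab6a-202 took 0 in both. In the kallisto layout Rab6a-201 took 67.1% and 59.8%, Rab6a-203 took 2.54% and 1.92%, and Rab6a-202 took 1.13% and 1.56%. The copy printed first above was thus the prevalent one in both libraries and both layouts.

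In 10 detected genes, a pair of protein_coding transcripts each took at least 20% of the TPM. Rab11a-206 and Rab11a-208 took 46.7 ± 0.77% and 43.9 ± 1.41%, although the 462-base Rab11a-206 held 384 and 415 expected counts against 2302 and 2323 for the 2336-base Rab11a-208. The kallisto layout gave Rab11a-206 a share of 0. Rab11b-203 and Rab11b-202 took 28.4 ± 1.13% and 23.8 ± 0.35%. Rab18-201 and Rab18-203 took 43.4 ± 1.12% and 43.1 ± 1.04% in the RSEM layout. Their order changed between libraries, at 44.15% and 42.56% against 42.41% and 43.88%. In the kallisto layout they took 16.1 ± 1.53% and 36.4 ± 0.66%, and the processed transcript Rab18-202, at 0 in the RSEM layout, took 40.1 ± 2.36%. The remaining pairs were less even in the RSEM layout or varied more between libraries. Rab27b-203 took 49.6% and 42.3%, and Rab27b-201 took 39.4% and 50.7%, so their order changed between libraries. Rab30-201 and Rab30-203 also changed order, at 45.6% and 38.8% against 42.5% and 41.0%. Rab2b-201 took 61.2% and 50.3%, and Rab2b-203 took 31.8% and 40.3%. Rab13-201 took 63.8 ± 18.0% and Rab13-202 28.5 ± 15.0%, from 112 and 101 counts for the gene. Rab29-202 took 58.0 ± 3.59% and Rab29-201 took 39.3 ± 0.21%. Rab37-201 took 49.8 ± 0.56% and Rab37-202 took 30.7 ± 1.31%. Rab40c-209 took 63.3 ± 5.83% and Rab40c-207 took 27.4 ± 6.53%. In the kallisto layout Rab40c-209 was at 0 and Rab40c-207 led with 80.6 ± 3.02%.

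**Figure D5:**
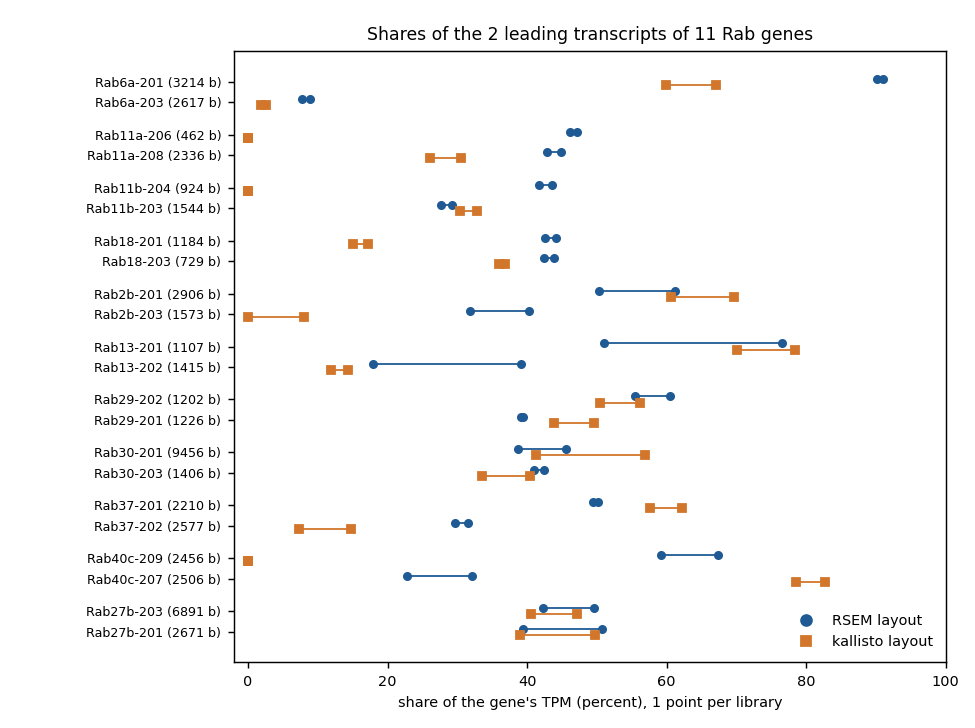
Share of the gene's TPM (percent, 1 point per library) held by the leading pair of transcripts of 11 Rab genes in the RSEM layout (circles) and the kallisto layout (squares), with transcript lengths in bases (b). For Rab27b the ranges of both layouts overlap, whereas Rab11a-206, Rab11b-204 and Rab40c-209 are at 0 in the kallisto layout.

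Between the libraries the folds of the Rab genes were small. Expected counts were scaled by TMM factors, and folds were read where the mean count was at least 50, which 51 of the 59 genes reached. None of the 51 lay more than 2-fold apart, beside 0.384% of 14307 genes so read. None lay more than 1.5-fold apart, beside 1.64%. At such shares, none in 51 genes does not set the Rab genes apart from other genes. Above 1.2-fold there was 1 gene, or 1.96%, beside 10.4% of all genes. This was Rab39, with 80 and 68 counts and a fold of 1.205 towards replicate 1, whose exact binomial 95% interval of 0.861 to 1.69 included 1. The median absolute log2 difference was 0.05 for the Rab genes and 0.07 for all genes read. The genes compared were not matched by count, and 42 of the 59 Rab genes had a mean count of at least 500. In 31 Rab genes replicate 1 was higher and in 20 replicate 2, and the same share over all genes is not given here. The median log2 ratio of replicate 2 to replicate 1 was -0.013 for the Rab genes and 0.0004 for all genes read. Both lie near 0, so the direction counts are not read as a lean of the family.

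The exact 95% counting interval of the fold excluded 1 for 12 of the 51 genes, or 23.5%, beside 20.1% of all genes. These intervals cover counting error only. Rab3b was higher in replicate 2 by 1.16-fold (interval 1.05 to 1.28), as were Rab9b by 1.16-fold, Rab2b by 1.15-fold and Rab4b by 1.12-fold. Rab31, an endosomal Rab of the Rab22 group, had 1934 counts in replicate 1 and 1672 in replicate 2, a fold of 1.18 towards replicate 1 (interval 1.11 to 1.27). Rab40c was higher in replicate 1 by 1.14-fold, Rab33b by 1.13-fold and Rab8b by 1.10-fold. Genes with more counts have narrower intervals and so enter this set at smaller folds. Rab3a was 1.05-fold higher in replicate 1, and Rab15, Rab6b and Rab3c were 1.05-fold, 1.03-fold and 1.03-fold higher in replicate 2. The oligodendrocyte, meningeal, choroid plexus and erythroid marker levels given above also differed between these libraries, and their part in the Rab differences was not tested.

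Some Rab exons overlap other genes, and the strand setting of the counting is not given in the sources used here. Each overlap below is the longest between a single pair of exons and not a sum over exons. Rab24 shares 830 bases of exon with Prelid1 on the opposite strand, which had 1851 and 1919 counts against 905 and 955 for Rab24. Rab6a overlaps Mrpl48 by 409 bases and Rab2b overlaps Tox4 by 158 bases, both on opposite strands. Rab10 overlaps the antisense gene Rab10os, with 768 and 803 counts, by 132 bases. Rab26 shares 173 bases on the same strand with the coding gene Traf7. Traf7 had 1083 and 1060 counts against 1002 and 1065 for Rab26. Rab43 shares 3980 bases on the same strand with the coding gene Gm45140, which had 54.0 and 126 counts. The division of reads within these pairs is uncertain. The processed tables also list the pseudogene Rab11b-ps2, at 35.5 and 60.5 expected counts in the RSEM layout and 370 and 500 in the kallisto layout, beside 4452 and 4641 RSEM-layout counts for Rab11b.

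The listed regulators of Rab proteins were detected almost throughout. The lists were chosen with earlier results known, so this does not describe Rab regulators at large. For the lists here and below, the shares over all genes are 58.0% of protein-coding genes detected and 0.384% of genes more than 2-fold apart. At the latter share, none in a list does not set it apart. Of the 8 genes for GDP dissociation inhibitors, escort proteins and prenylation, 8 were detected and none lay more than 2-fold apart between libraries in either direction. Rabac1, a prenylated Rab acceptor, had 130 and 127 TPM, and Gdi2, which extracts GDP-bound Rabs from membranes, had 121 and 120 TPM.

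All 28 genes listed as exchange factors and all 25 listed as GTPase-activating proteins were detected, with none more than 2-fold apart. Madd, the exchange factor for Rab3 and Rab27, had 91.4 and 85.4 TPM. Dennd5a had 87.4 and 84.6 TPM and Rin1, which acts on Rab5, had 42.7 and 38.5 TPM. Among the activating proteins, Rabgap1l led with 97.0 and 96.0 TPM, followed by Tbc1d10b with 37.8 and 40.2 TPM and Sgsm2 with 39.3 and 36.2 TPM. The summed TPM of the exchange-factor list was 605 and 567 and that of the activating-protein list 603 and 573. The former list includes Rab3gap1 (30.5 and 29.6 TPM) and Rab3gap2 (27.3 and 24.8 TPM), whose names refer to GTPase activation. Both sums depend on where these genes are placed.

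Of 39 effector genes matched by name, 34 were detected and none of the 34 with enough counts lay more than 2-fold apart. The leading effectors were Rims1, the active-zone scaffold that binds Rab3, at 104 and 95.2 TPM, Rph3a, the Rab3 effector rabphilin, at 87.5 and 85.4 TPM, and Myo5a, a myosin motor recruited by Rabs, at 82.5 and 78.5 TPM. For the kinases and phosphatase that act on Rab switch II regions, Ppm1h had 28.4 and 29.6 TPM, Lrrk2 9.39 and 10.5 TPM, and Lrrk1 1.09 and 0.90 TPM.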

How the data were processed

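Total RNA-seq of 2 hippocampus libraries was analysed from deposited tables. Per the file headers, the gene and transcript tables in the layout that RSEM writes hold expected counts, posterior mean counts, TPM, FPKM and the percentage (percent) of a gene's TPM in each transcript, and the tables in the layout that kallisto writes hold estimated counts and TPM. The deposited description names mm10, GENCODE M21, transcriptome alignments for the former and reads with an index for the latter. The aligner, the versions and whether counting used strand were not given in the sources used here.

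Members were matched by symbol and gene identifier. Levels are the authors' TPM as deposited, with a detection minimum of 1. Expected counts were rounded and scaled with edgeR 4.0.16 TMM factors over 17697 genes passing filterByExpr, and folds between libraries carry exact binomial 95% intervals (scipy 1.17.1). The fold rule was tried on simulated data with changes larger than the rule asks and a median-ratio scale in place of TMM. That run checks the code, and no result here rests on it. DESeq2 1.42.0 size factors, other scalings, units, minimums, layouts and each library alone were alternatives. Sequences, exon overlaps and coding lengths came from GENCODE M21 transcripts and annotation, and coding identity from global alignment (Biopython 1.88).

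Members, lists and trafficking steps were chosen with earlier results of these data known. Values are given for the 3 highest genes and the lowest of each step, all paralog ratios, the 3 extreme layout ratios at each end, genes with a pair of coding transcripts at 20% or more, and the 3 highest of each regulator list. The values of 1 regulator gene are not reported here. The effector list names 40 genes, of which 1, an older name of a listed gene, was unmatched.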

Additional observations from a re-analysis of the deposited data

How the results depend on the processing

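No paired analysis was possible because the labels give 1 group. The number of detected Rab genes, paralog leaders and leading transcripts stayed within 1.5 times the main count under each alternative run. The summed TPM, 2340 ± 79.7, was 4445 in the kallisto layout, 5352 rescaled to protein-coding genes, 1713 as FPKM and, for protein_coding transcripts alone, 2180 (RSEM layout) and 3818 (kallisto layout). The secretory share of 20.1% was 17.2% in the kallisto layout, 20.0% by posterior mean, and 20.6% and 19.2% for protein_coding transcripts of the RSEM and kallisto layouts. Rab3a to Rab3d was 57.1 for protein_coding transcripts of the RSEM layout. At a mean count of at least 10, 1 gene, Rab7b, was over 2-fold apart (12 and 28 counts). The direction turned for Rab1a to Rab1b (0.94 kallisto layout; 0.992 and 0.928 for protein_coding transcripts of the RSEM and kallisto layouts), Rab6b to Rab6a (0.817, kallisto layout), Rab11b to Rab11a (0.887, protein_coding transcripts, RSEM layout) and Rab33b to Rab33a (0.929 and 0.987 for protein_coding transcripts of the RSEM and kallisto layouts). Settings on protein_coding transcripts were chosen after seeing the data, except that for leading transcripts. The cause was not tested. TPM of single genes moved by more than 1 SD for 55 of 59 in the kallisto layout and 15 of 59 by posterior mean. Leaving out a library gave 2283 to 2396 for the summed TPM and 37.4 to 42.6 for Rab3a to Rab3d; leaders shared by both libraries, and folds between them, need both. With 2 libraries the SD itself is imprecise, and the 8 Rab genes under a mean count of 50 have no fold.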

Other observations

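Genes for Rab-like proteins lie outside the symbol rule and were chosen after their values were seen. Rabl6 had 60.7 TPM in replicate 1 and 54.3 in replicate 2, beside 61.4 and 57.7 TPM for Rab10. Ift22 and Ift27, the Rab-like subunits of the intraflagellar transport complex that builds cilia, had 34.6 and 33.3 TPM and 8.79 and 9.32 TPM. Rabl2, which acts at the ciliary base, had 10.5 and 10.6 TPM, and Rabl3 had 3.27 and 2.94 TPM. Rasef, a larger Rab-related gene, had 0 expected counts in both libraries.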
